A study of Bos taurus with 8 samples.

Results

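The genes described here are 10 members of the bone morphogenetic protein (BMP) pathway and its ID targets: the ligands BMP4 and BMP7, the receptors BMPR1A and BMPR2, the signal transducers SMAD1 and SMAD5, and the targets ID1, ID2, ID3 and ID4. They were chosen by name, and all 10 were found among 32637 genes with values, and all 10 were among the 15744 genes tested. RNA sequencing was available for 4 XX bovine embryonic stem cell (bESC) lines, which carry the letters A, C, D and E and are described in the methods as independent biological replicates. Each line was sequenced once on MEF (irradiated mouse embryonic fibroblasts, a feeder layer) and once after transition to feeder-free culture on vitronectin (VTN, an extracellular matrix protein), giving 4 libraries per condition and 8 in all. The comparison asks how the transcriptome of the same lines differed between the culture matrices in low oxygen.

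Both groups were kept in 5% O2 in NBFR medium, which contains FGF2 and the WNT inhibitor IWR-1. No BMP and no BMP inhibitor is named among the components of this medium in the methods. Cells on MEF were sequenced at passage 15 to 17 and cells without feeders at passage 20 to 22, so matrix, feeder cells and passage cannot be told apart. The sample names carry the medium with Activin A (a TGF-β family ligand) in both conditions, whereas the methods give Activin A as an addition for feeder-free culture only, so a part of Activin A cannot be told apart either. The methods also describe a subtraction of bovine-aligning MEF reads from the MEF cultures, and whether the deposited counts are from before or after that step is not given in the sources used here. Values on MEF may therefore still hold reads of the mouse feeders, and their part in the values below was not tested.

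BMP ligands are secreted dimers that bring together type I and type II receptor kinases at the cell surface. The type I receptor then phosphorylates SMAD1, SMAD5 and SMAD9, which join SMAD4, enter the nucleus and activate target genes, among which the ID genes respond quickly and directly. ID proteins have a helix-loop-helix domain but no DNA-binding region, and they hold back the E proteins TCF3, TCF4 and TCF12 from DNA. In mouse ESCs, BMP and ID proteins help to maintain self-renewal, whereas in primed pluripotent cells BMP drives differentiation towards mesoderm, amnion and trophoblast.

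Library totals were 44268717 to 54296425 counts on MEF and 49671478 to 102351560 in feeder-free conditions, where line D had the highest total. Levels are given as CPM (counts scaled to a common library total) after TMM scaling, a normalisation for library composition, and they compare 1 gene between libraries, not different genes with each other. Genes were called at a Benjamini-Hochberg adjusted p under 0.05 together with a fold change of 1.5 or more in edgeR's quasi-likelihood test, fitted on condition alone or with line as a replicate block. The fit on condition alone leaves aside that each line was sequenced in both conditions, which the replicate block takes into account. The pluripotency genes POU5F1, SOX2 and NANOG were at 1807 to 2341, 395 to 476 and 235 to 284 CPM on MEF and at 1725 to 1907, 333 to 352 and 195 to 239 in feeder-free conditions. The summed level of 8 pluripotency markers was 4541 to 5119 CPM on MEF and 3923 to 4010 in feeder-free conditions, and DPPA4, one of these, was at or below 0.361 CPM in every library. Of these 8 markers 0 were called in either fit. Over all genes tested, 0.724% were called higher and 1.00% lower on condition alone, and 5.52% and 4.53% with the replicate block. Of the 8 markers, 6 had an unadjusted p under 0.05 on condition alone (edgeR), as did 3400 of the 15744 genes tested. SOX2, SALL4, LIN28A, LIN28B and ZIC2 were lower in all feeder-free libraries than in any MEF library. Of all genes tested, 8.36% had this pattern. SALL4 had a log2 fold change of -0.58 with an adjusted p of 0.0426 on condition alone (edgeR), just short of a 1.5-fold change.

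ID1, ID2 and ID3 were higher in all 4 feeder-free libraries than in any MEF library, by 1.61-, 1.66- and 1.93-fold, whereas ID4 did not differ detectably. On condition alone 0 of the 10 members were called, although 5 (ID1, ID2, ID3, BMPR2 and SMAD5) had an unadjusted p under 0.05. Over all genes tested, that fit called 0.724% higher and 1.00% lower in feeder-free conditions. An unadjusted p under 0.05 in that fit (edgeR) was found for 3400 of the 15744 genes. With line as a replicate block, ID1, ID2 and ID3 were called higher and 0 members lower, where the background was 5.52% of all genes called higher and 4.53% called lower. The 3 ID genes were the members whose feeder-free libraries all lay above MEF, a pattern found in 6.21% of all genes tested. BMPR2 and SMAD1 were the members whose feeder-free libraries all lay below MEF, a pattern found in 8.36% of all genes. The fitted log2 fold change was above 0 for 3 members and below 0 for 7, with a median of -0.18 over the members and 0.0060 over all genes tested.

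**Figure D1:**
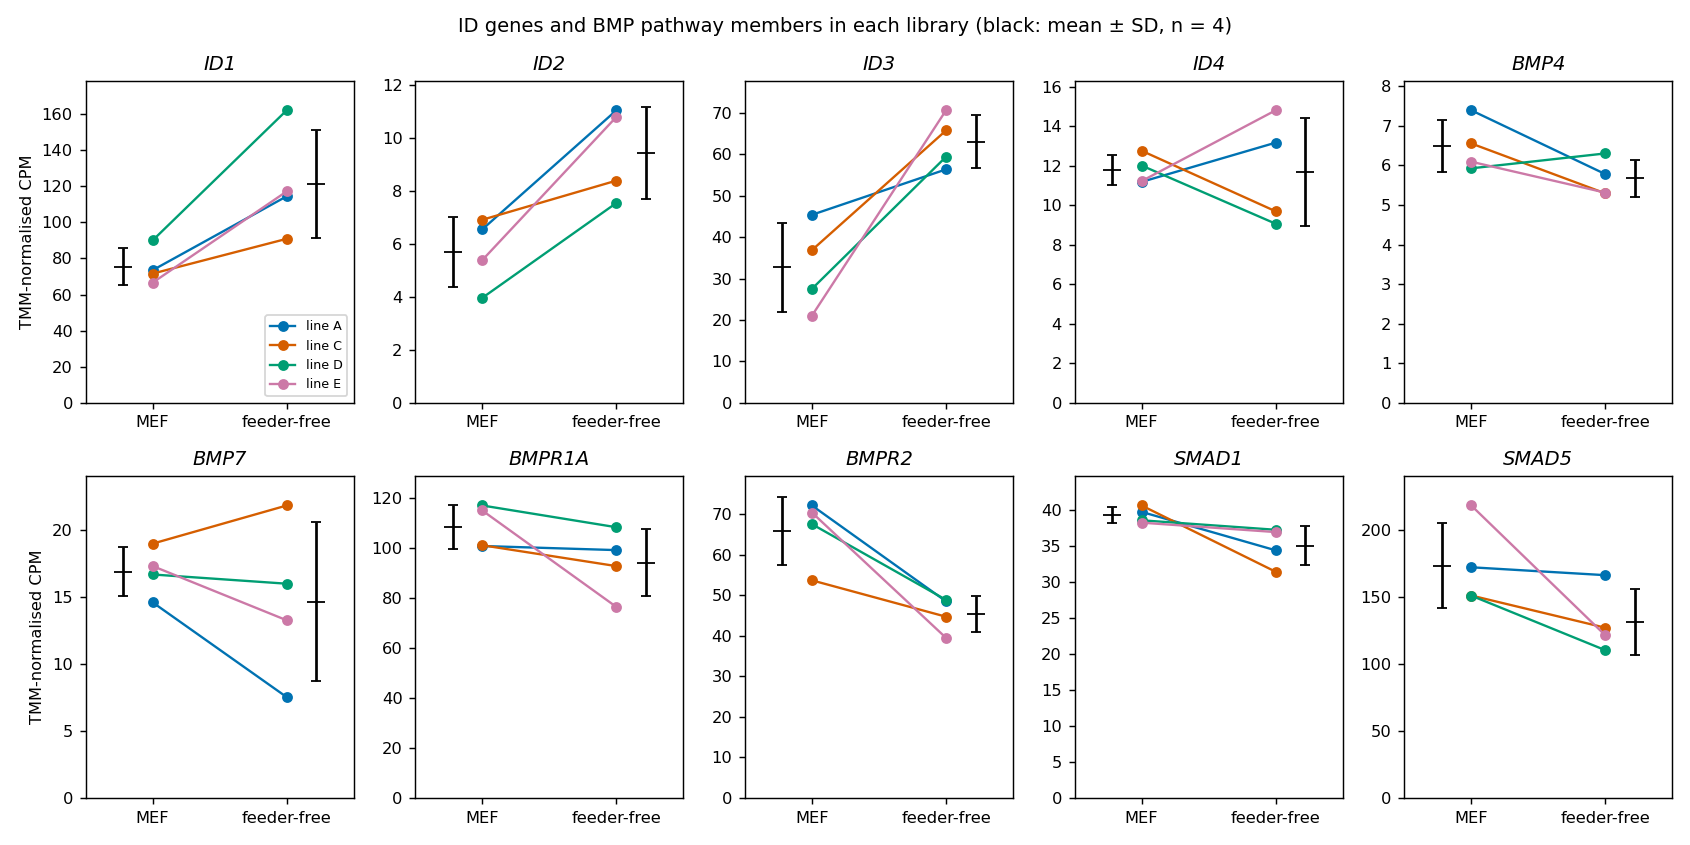
TMM-normalised CPM (vertical axis, from 0) of the 10 members in each library on MEF and in feeder-free conditions. Coloured points joined by a line are the libraries of 1 bESC line, and black bars give the mean ± SD (n = 4). ID1, ID2 and ID3 are higher without feeders in every line, and BMPR1A, BMPR2, SMAD1 and SMAD5 are lower in every line.

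Neither ligand passed the test. BMP4 (chromosome 10, 66518533 to 66525639, ARS-UCD2.0), an early inducer of mesoderm and ID expression, was at 7.39, 6.56, 5.93 and 6.09 CPM on MEF in lines A, C, D and E and at 5.78, 5.29, 6.30 and 5.31 in feeder-free conditions. The groups overlapped, and line D differed from the others in being slightly higher without feeders. The means were 6.49 ± 0.658 on MEF and 5.67 ± 0.478 CPM in feeder-free conditions (SD, n = 4), which gave a log2 fold change of -0.19 ± 0.178 (SE) with an adjusted p of 0.582 from edgeR. Its 95% interval ran from -0.59 to 0.21.

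BMP7 (chromosome 13, 58889622 to 58975046, in a region that also holds MIR2307) encodes a ligand that can pair with BMP4 into a more active dimer. It was at 14.6, 19.0, 16.7 and 17.3 CPM on MEF in lines A, C, D and E and at 7.52, 21.8, 16.0 and 13.3 in feeder-free conditions. The MEF libraries lay close together, while the feeder-free libraries held both the lowest value (line A) and the highest (line C). The log2 fold change was -0.21 ± 0.282 (SE) with a 95% interval of -0.84 to 0.43 and an adjusted p of 0.736 from edgeR. With the feeder-free library of line A left out it was 0.011, so its sign on condition alone rested on that library. With the replicate block the log2 fold change was -0.29. It stayed below 0 with any line left out, at -0.08 without line A.

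Among the receptors, BMPR2 was lower in feeder-free conditions in every line, and BMPR1A was lower by a smaller margin that did not pass the test. BMPR1A (chromosome 28, 41403870 to 41545706), a type I receptor for BMP2 and BMP4, was at 101, 101, 117 and 115 CPM on MEF and at 99.1, 92.7, 108 and 76.3 in feeder-free conditions. All 4 lines had lower values without feeders, but the groups overlapped because line D stayed above the MEF values of lines A and C. The log2 fold change was -0.20 ± 0.130 (SE; 95% interval -0.50 to 0.09) with an adjusted p of 0.410 from edgeR.

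BMPR2 (chromosome 2, 90864689 to 91017391), the type II receptor dedicated to BMP ligands, was at 72.2, 53.7, 67.6 and 70.4 CPM on MEF and at 48.5, 44.7, 48.9 and 39.5 in feeder-free conditions. Every feeder-free library lay below every MEF library, with the smallest difference in line C and the largest in line E. The means were 66.0 ± 8.39 and 45.4 ± 4.36 CPM (SD, n = 4), which gave a log2 fold change of -0.54 ± 0.129 (SE; 95% interval -0.83 to -0.25) with an adjusted p of 0.0602 from edgeR. With the replicate block the log2 fold change was -0.53 and the adjusted p 0.0203 in edgeR, past the p threshold but short of a 1.5-fold change. Without line C the replicate block gave -0.61 with an adjusted p of 0.0475 (edgeR), and BMPR2 was then called lower.

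The SMADs that carry the BMP signal were both at lower fitted levels in feeder-free conditions, without a call. SMAD1 (chromosome 17, 12740800 to 12823138, in a region that also holds MIR2284G) was at 39.8, 40.7, 38.6 and 38.3 CPM on MEF and at 34.4, 31.5, 37.3 and 37.0 in feeder-free conditions. Its groups did not overlap, but the highest feeder-free and lowest MEF values were close. The log2 fold change was -0.17 ± 0.105 (SE; 95% interval -0.40 to 0.07) with an adjusted p of 0.402 from edgeR.

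SMAD5 (chromosome 7, 47561017 to 47623314), a close relative of SMAD1 acting beside it, was at 172, 151, 151 and 219 CPM on MEF and at 167, 127, 110 and 122 in feeder-free conditions. The difference within a line was largest in line E and smallest in line A, with log2 ratios of -0.85 and -0.05, and the groups overlapped. The fitted log2 fold change was -0.40 ± 0.171 (SE; 95% interval -0.78 to -0.02) with an unadjusted p of 0.0429 and an adjusted p of 0.214 from edgeR, or 0.0741 with the replicate block.

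Among the ID genes, 3 of 4 were higher in feeder-free conditions. ID1 (chromosome 13, 61180673 to 61181832) was at 73.5, 71.6, 90.0 and 66.6 CPM on MEF in lines A, C, D and E and at 115, 90.9, 162 and 117 in feeder-free conditions. Line D was highest in both conditions, and the lowest feeder-free value, that of line C, was just above the highest MEF value. The means were 75.4 ± 10.2 and 121 ± 29.8 CPM (SD, n = 4), which gave a log2 fold change of 0.68 ± 0.181 (SE; 95% interval 0.28 to 1.09) with an adjusted p of 0.0750 from edgeR. With the replicate block ID1 rose by 0.66 ± 0.119 on the log2 scale (SE) with an adjusted p of 0.00779 in edgeR. Without line D the replicate block gave 0.60 with an adjusted p of 0.0529 (edgeR), so the call was lost.

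ID2 (chromosome 11, 88604892 to 88607196) was at 6.55, 6.92, 3.96 and 5.39 CPM on MEF and at 11.1, 8.40, 7.55 and 10.8 in feeder-free conditions. The groups did not overlap, and the smallest difference was again in line C. The means were 5.71 ± 1.33 and 9.46 ± 1.75 CPM (SD, n = 4), from 192 to 381 counts per library on MEF, so ID2 rested on fewer counts than ID1 or ID3. The log2 fold change was 0.73 ± 0.233 (SE; 95% interval 0.21 to 1.25) with an adjusted p of 0.114 on condition alone, and with the replicate block it rose by 0.74 with an adjusted p of 0.0278 (edgeR). The call was lost without line A, D or E, where the replicate block gave adjusted p of 0.0639, 0.123 and 0.0732 in edgeR and log2 fold changes of 0.74, 0.68 and 0.67.

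ID3 (chromosome 2, 129292811 to 129298372) had the largest log2 fold change of the members. It was at 45.4, 36.9, 27.5 and 21.0 CPM on MEF and at 56.4, 65.8, 59.4 and 70.7 in feeder-free conditions. The MEF libraries were spread over a wider range than the feeder-free ones, and the difference within a line was smallest in line A (log2 ratio 0.31) and largest in line E (1.75). The means were 32.7 ± 10.7 and 63.1 ± 6.40 CPM (SD, n = 4), which gave a log2 fold change of 0.95 ± 0.221 (SE; 95% interval 0.45 to 1.44) with an adjusted p of 0.0566 from edgeR on condition alone. With the replicate block ID3 rose by 1.00 ± 0.200 (SE) on the log2 scale with an adjusted p of 0.0120 in edgeR, and it was called higher with each of the 4 lines left out in turn.

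ID4 (chromosome 23, 38098536 to 38101941) was at 11.2, 12.8, 12.0 and 11.2 CPM on MEF and at 13.2, 9.70, 9.07 and 14.8 in feeder-free conditions. It was higher without feeders in lines A and E and lower in lines C and D, so the feeder-free values spread to both sides of a narrow MEF range. The means were 11.8 ± 0.747 and 11.7 ± 2.76 CPM (SD, n = 4), which gave a log2 fold change of -0.014 ± 0.190 (SE; 95% interval -0.44 to 0.41) with an adjusted p of 0.979 from edgeR. The sign of this value turned with no scaling beyond library size. A difference between ID4 and the other ID genes was not tested.

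**Figure D2:**
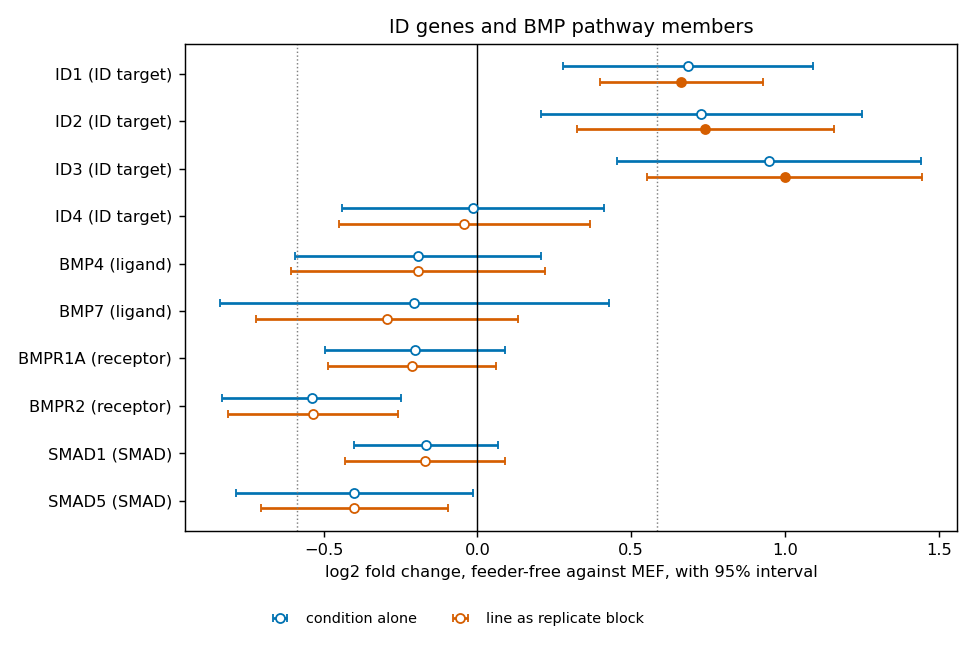
Log2 fold change of feeder-free against MEF (horizontal axis) for the 10 members, with 95% intervals, from edgeR on condition alone (blue) and with line as a replicate block (orange). Filled points passed both thresholds, dotted lines mark a 1.5-fold change, and the 3 filled points are ID1, ID2 and ID3 with the replicate block.

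Across the 8 libraries the log2 CPM of ID3 followed that of ID2 (Pearson r = 0.832) and ID1 (0.669), while ID4 had r of -0.166 with ID1, 0.266 with ID2 and -0.019 with ID3. BMPR2 had r of -0.827 with ID3, -0.817 with ID2 and -0.645 with ID1. BMPR1A had -0.79 with ID2, -0.76 with ID3 and -0.26 with ID1. SMAD5 had -0.76 with ID1, -0.39 with ID2 and -0.76 with ID3. These values describe 8 libraries that share 4 lines and 2 conditions, so they hold the difference between conditions as well as that between lines. The mean log2 CPM of ID1, ID2 and ID3 was 4.81, 4.72, 4.43 and 4.30 on MEF in lines A, C, D and E and 5.38, 5.21, 5.39 and 5.49 in feeder-free conditions. Line E thus had the lowest value of the lines on MEF and the highest without feeders.

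The 5 genes whose log2 CPM was most like that mean over the 8 libraries, among 10731 genes with a mean of at least 5 CPM, were HAUS1 (r = 0.989), EXOSC4 (0.988), HYPK (0.986), NSMCE4A (0.985) and MRPL20 (0.982). HAUS1 belongs to the augmin complex of the spindle, EXOSC4 to the RNA exosome, NSMCE4A to the SMC5-SMC6 complex and MRPL20 to the mitochondrial ribosome, and HYPK binds the N-terminal acetyltransferase NatA. HAUS1 ran from 38.3 to 42.8 CPM on MEF and from 45.7 to 48.5 in feeder-free conditions, a smaller difference than that of the ID genes. HYPK and MRPL20 were called higher in edgeR on condition alone, with log2 fold changes of 0.71 and 0.70 and adjusted p of 0.0494 and 0.0373. The 5 genes were picked for likeness to a mean that itself differed between the conditions. A difference was thus built into the choice, and these calls are no separate result. None of the 5 is a BMP pathway gene of the list used here.

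Gene length went along with the direction of the differences. Over 15679 genes with an annotated span, short genes were on balance higher and long genes lower in feeder-free conditions, with r = -0.0955 across genes, which are not independent replicates. The median log2 fold change was 0.10 in the first of 10 equal bins by span (0.053 to 3.45 kb), 0.13 in bin 2 and -0.16 in bin 10, which held the longest genes. ID1, ID2 and ID4 were in bin 1, ID3 in bin 2 and BMP4 in bin 3. SMAD5 was in bin 8, SMAD1, BMP7 and BMPR1A in bin 9 and BMPR2 in bin 10. BMP4 and ID4 had log2 fold changes of -0.19 and -0.014, against medians of 0.08 and 0.10 in their bins.

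After a correction of each library for its trend with span, in the fit with the replicate block, ID2 and ID3 were still called higher, with log2 fold changes of 0.63 and 0.90 and adjusted p of 0.0399 and 0.0138 in edgeR. ID1 then had 0.58 with an adjusted p of 0.00967 (edgeR), just short of a 1.5-fold change, so its call was lost on fold alone. BMPR2 had -0.43 with an adjusted p of 0.0334, and ID4 had -0.15 with an adjusted p of 0.592 (edgeR). SMAD5, BMP4, BMP7, BMPR1A and SMAD1 had -0.34, -0.28, -0.22, -0.11 and -0.10, without a call. That fit called 833 higher and 642 lower among all 15744 genes tested. On condition alone the corrected fit called 0 members, and 89 genes higher and 143 lower among all tested. ID1, ID2 and ID3 then had log2 fold changes of 0.59, 0.62 and 0.86. Their adjusted p were 0.206, 0.126 and 0.0615 (edgeR).

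**Figure D3:**
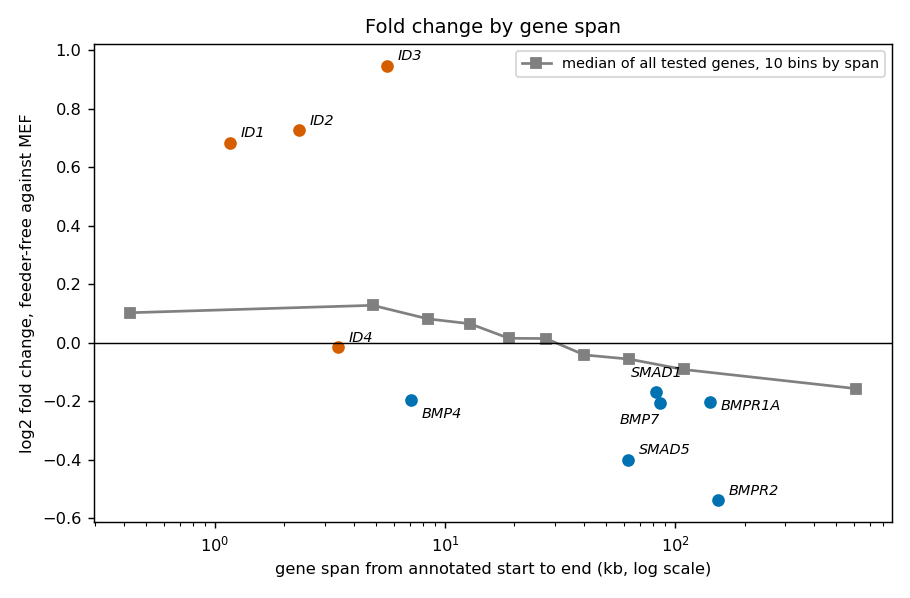
Log2 fold change of feeder-free against MEF (vertical axis) by annotated gene span in kb (horizontal axis, log scale). Grey squares are medians of all tested genes in 10 equal bins by span, from 0.10 for the shortest to -0.16 for the longest; orange points are the ID genes and blue points the other members, with ID1, ID2 and ID3 far above the squares.

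The other genes of the pathway were taken from a list of 56 with values, of which 16 did not pass the filter on low counts. Of the 40 tested, 1 (FST) was called higher and 1 (NBL1) lower in edgeR on condition alone. In that fit 15 of the 40 had an unadjusted p under 0.05, and the median log2 fold change was 0.07. Over all genes tested, it called 0.724% higher and 1.00% lower, and 3400 of 15744 had an unadjusted p under 0.05. With the replicate block 3 were called higher (CHRD, FST and FSTL3) and 7 lower (BMP3, ACVR2A, ACVR2B, RGMA, NBL1, SKIL and GATA2). These counts stand beside the backgrounds of 5.52% higher and 4.53% lower among all genes tested with the replicate block. Of the 10 secreted antagonists and modulators tested, 3 were called higher, 1 (NBL1) was called lower and 6 were not called with the replicate block.

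Among 9 ligands tested, members included, 0 were called on condition alone and BMP3 was called lower with the replicate block. BMP3, an atypical ligand that opposes other BMPs, was at 0.926 ± 0.462 CPM on MEF and 0.248 ± 0.0951 in feeder-free conditions (SD, n = 4). Its log2 fold change was -1.90 with an adjusted p of 0.0780 (edgeR), or -1.84 and 0.0250 with the replicate block, and the call was lost without line C, D or E, with adjusted p of 0.0714, 0.136 and 0.0696 and log2 fold changes of -1.96, -1.67 and -1.76. GDF3, a ligand of the NODAL branch that can also hold back BMPs, was at 27.9 ± 12.5 and 35.8 ± 7.65 CPM, with an adjusted p of 0.545 (edgeR).

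Of 7 receptors tested, ACVR2A and ACVR2B, type II receptors shared by activins, NODAL and BMPs, were called lower with the replicate block. ACVR2B was at 50.7 ± 3.72 CPM on MEF and 30.7 ± 6.14 in feeder-free conditions (SD, n = 4), without overlap of the groups. It had a log2 fold change of -0.73 and an adjusted p of 0.0504 on condition alone, and -0.74 and 0.0131 with the replicate block (edgeR). Its call was lost without line D (log2 fold change -0.71, adjusted p 0.0582) and without line E, where the change of -0.57 was short of 1.5-fold.

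ACVR2A was at 40.2 ± 10.6 and 25.9 ± 8.94 CPM with overlapping groups, and its log2 fold change was -0.65 with an adjusted p of 0.0446 with the replicate block (edgeR), against 0.199 on condition alone. That call was lost without any line in turn (log2 fold changes of -0.77, -0.74, -0.69 and -0.37 without A, C, D and E) and after the correction for span (adjusted p 0.0568). ACVR1, a type I receptor for BMP6 and BMP7, was at 58.4 ± 7.06 and 50.6 ± 9.98 CPM with an adjusted p of 0.510 (edgeR). ACVRL1, the type I receptor for BMP9 and BMP10 in endothelium, was at 0.329 ± 0.207 and 1.16 ± 1.40 CPM, where line D without feeders had 3.23 and the other 3 at or below 0.678. RGMA, a membrane-anchored BMP co-receptor, was at 155 ± 48.8 CPM on MEF and 82.0 ± 17.6 in feeder-free conditions, without overlap, and its log2 fold change was -0.92 with an adjusted p of 0.0729 on condition alone and -0.89 and 0.00166 with the replicate block (edgeR).

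Secreted antagonists held both genes called on condition alone. FST encodes follistatin, which binds activins tightly and BMPs less so, and it was at 37.4, 37.6, 27.6 and 20.7 CPM on MEF in lines A, C, D and E and at 63.1, 65.9, 66.8 and 52.9 in feeder-free conditions. All feeder-free values lay above the MEF values, and as for ID3 the lowest MEF value was that of line E. FST rose by 1.01 ± 0.195 on the log2 scale (SE) with an adjusted p of 0.0411 on condition alone, and by 1.05 with 0.00220 with the replicate block (edgeR). On condition alone the call held when line A without feeders was left out (adjusted p 0.0488) and was lost without any other library, with adjusted p between 0.0802 and 0.116 and log2 fold changes between 0.86 and 1.12.

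NBL1 encodes a secreted antagonist of the DAN family that binds BMPs, and it was at 86.5, 94.6, 105 and 105 CPM on MEF and at 40.2, 34.0, 36.7 and 44.1 in feeder-free conditions. The highest feeder-free value was far below the lowest MEF value. NBL1 fell by 1.34 on the log2 scale (SE 0.124) with an adjusted p of 0.0196 in edgeR, equal to the smallest among the 15744 genes on condition alone. The call was lost without the MEF libraries of lines D and E, each alone, and without the feeder-free ones of C and E, with adjusted p of 0.0562, 0.0645, 0.0668 and 0.0740 and log2 fold changes between -1.28 and -1.39.

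CHRD, which encodes chordin, an antagonist that traps BMP dimers, was at 4.54, 8.30, 10.3 and 6.34 CPM on MEF and at 9.03, 21.1, 32.6 and 19.0 in feeder-free conditions. It was higher without feeders in every line, although line A without feeders stayed below line D on MEF. The log2 fold change was 1.47 with an adjusted p of 0.0710 on condition alone, and with the replicate block it rose by 1.40 with 0.00139 (edgeR), a call kept with any line left out. FSTL3, a relative of follistatin, was at 9.87, 10.8, 17.0 and 4.10 CPM on MEF and at 9.13, 27.8, 108 and 28.3 in feeder-free conditions, slightly lower in line A and far higher in line D. Its log2 fold change was 2.06 with an adjusted p of 0.128 on condition alone, or 1.06 with the feeder-free library of D left out, and 1.71 with an adjusted p of 0.0249 with the replicate block (edgeR). Without line C, D or E the call with the replicate block was lost, with log2 fold changes of 1.86, 1.34 and 1.36 and adjusted p of 0.0667, 0.0863 and 0.0873. FSTL1, a secreted glycoprotein that binds BMP4, was at 337 ± 20.0 and 400 ± 94.0 CPM with an adjusted p of 0.458 (edgeR).

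**Figure D4:**
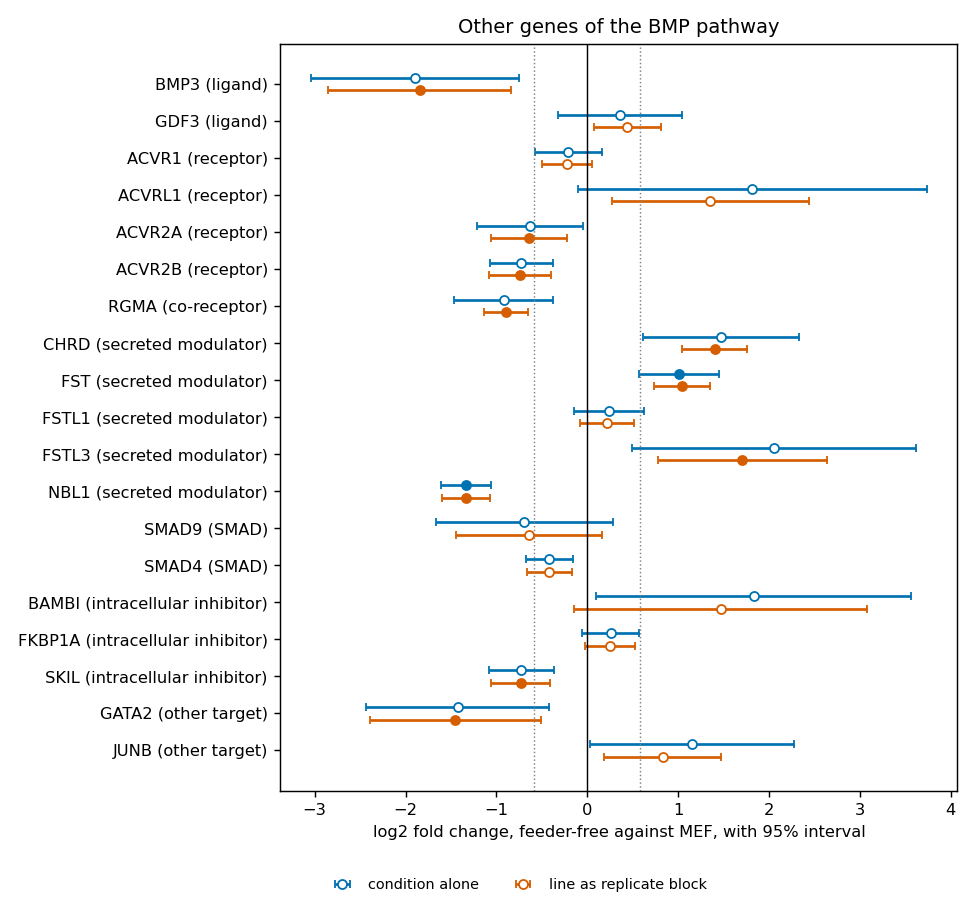
Log2 fold change of feeder-free against MEF (horizontal axis) with 95% intervals for 19 other BMP pathway genes, by role, on condition alone (blue) and with line as a replicate block (orange). Filled points passed both thresholds; on condition alone these are FST, higher, and NBL1, lower.

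Of the 4 SMADs of the BMP branch tested, members included, all had a fitted log2 fold change below 0 and 0 were called in either edgeR fit. SMAD4, the shared partner of the receptor-activated SMADs, was at 305 ± 23.1 CPM on MEF and 228 ± 20.1 in feeder-free conditions (SD, n = 4), without overlap of the groups. Its log2 fold change was -0.42 with an adjusted p of 0.0823, or 0.0326 with the replicate block (edgeR), short of a 1.5-fold change. It overlaps LOC112444219, so reads of that locus could be split. SMAD9, the third BMP SMAD, was at 1.36 ± 0.562 and 0.844 ± 0.322 CPM with an adjusted p of 0.403 (edgeR).

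Inhibitors inside the cell were 9, of which SKIL, a repressor of SMAD-driven transcription, was called lower with the replicate block. SKIL was at 263 ± 34.3 CPM on MEF and 159 ± 27.7 in feeder-free conditions, without overlap, with a log2 fold change of -0.73 and an adjusted p of 0.0509 on condition alone and 0.0117 with the replicate block (edgeR). Without line E its log2 fold change of -0.55 was short of 1.5-fold. BAMBI, a pseudoreceptor that is itself a BMP target, was at 0.244 ± 0.129 and 0.875 ± 0.680 CPM, with an adjusted p of 0.207 (edgeR). FKBP1A, which keeps type I receptors silent without ligand, was at 360 ± 25.8 and 430 ± 66.0 CPM, with an adjusted p of 0.330.

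Of 8 other targets 4 were tested, since MSX1, ATOH8, DLX5 and TBX3 did not pass the filter on low counts. The counts of TBX3 and MSX1, 2 transcription factors singled out after their values were seen, lay mainly in line D without feeders, at 302 and 218 counts (2.95 and 2.13 CPM), against at most 18 and 24 counts in any other library. GATA2, a transcription factor of trophoblast and blood, was at 1.13 ± 0.390 CPM on MEF and 0.421 ± 0.163 in feeder-free conditions, without overlap. Its log2 fold change was -1.45 with an adjusted p of 0.0447 with the replicate block (edgeR), and the call was lost without line A, C or D, with adjusted p of 0.104, 0.145 and 0.191 and log2 fold changes of -1.35, -1.495 and -1.26. JUNB, an AP-1 factor, was at 17.5 ± 3.80 and 38.9 ± 31.8 CPM with an adjusted p of 0.219 (edgeR), and the feeder-free library of line D alone reached 84.9 CPM.

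The E proteins, which ID proteins bind, were all at lower fitted levels without feeders, and 0 of 3 were called. TCF4 was at 148 ± 13.8 CPM on MEF and 103 ± 14.6 in feeder-free conditions, without overlap of the groups, with a log2 fold change of -0.52 and an adjusted p of 0.0677, or 0.0206 with the replicate block (edgeR), short of 1.5-fold. It is among the longest genes, it overlaps LOC112444223, and after the correction for span its log2 fold change with the replicate block was -0.31 with an adjusted p of 0.0715. TCF12 (overlapping LOC112448664) and TCF3 had log2 fold changes of -0.24 and -0.07 with adjusted p of 0.311 and 0.806 (edgeR). TCF12 is also among the longest genes. After the correction for span its log2 fold change was -0.020 on condition alone and -0.016 with the replicate block. The adjusted p were 0.948 and 0.931 (edgeR). TCF3 then had -0.050 and -0.044.

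Markers of other cells were set beside these values, since a mixed culture of bulk RNA cannot tell fewer cells of a type from less RNA per cell. Of 14 fibroblast markers tested 0 were called on condition alone, and their summed level was 463 to 583 CPM on MEF and 277 to 1310 in feeder-free conditions, where line D was highest. With the replicate block COL3A1 and POSTN were called higher and COL1A2 and PRRX1 lower. COL1A2 was at 0.680 to 4.65 CPM on MEF and at most 0.414 in feeder-free conditions, and PRRX1 at 1.02 to 2.62 and at most 0.606. In these 2 of the 14 fibroblast genes every feeder-free library lay below every MEF library, as in BMPR2 and NBL1. Of all genes tested, 8.36% had this pattern, and both fibroblast genes had few counts without feeders (at most 22 for COL1A2 and 62 for PRRX1). The fibroblast list was mixed in direction: of the 14 tested, 8 rose and 6 fell without feeders in the fit on condition alone. A link of these markers to BMPR2 or NBL1 was not tested. The summed level of 10 trophoblast and amnion markers was 21.2 to 39.1 CPM on MEF and 43.8 to 115 in feeder-free conditions, without overlap, and nearly all of it was KRT7, an epithelial keratin at 19.0 to 36.7 and 40.9 to 113 CPM. KRT7 was called higher with the replicate block, with a log2 fold change of 1.46 and an adjusted p of 0.0129 (edgeR), whereas CDX2, ELF5, PAG2 and IFNT2 had at most 3 counts in every library. TFAP2A, at most 0.327 CPM, was lower without feeders in all 4 lines, with a log2 fold change of -0.83 on condition alone. GATA3 and ISL1 were each higher in 3 lines and lower in 1. TFAP2A, GATA3 and ISL1 were not called in either fit.

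Among mesoderm markers, with sums of 2.40 to 8.67 CPM on MEF and 7.71 to 12.0 in feeder-free conditions, EOMES made up most of the feeder-free sums, at 6.26 to 9.53 CPM against 0.770 to 6.69 on MEF. EOMES was called higher with the replicate block with an adjusted p of 0.0307 and a log2 fold change of 1.61 (edgeR), against 0.211 on condition alone. The other 2 mesoderm markers tested, MIXL1 and TBX6, were not called, and TBX6 had a log2 fold change of -0.06. HAND2 did not pass the filter on low counts. Its CPM was lower in all feeder-free libraries (at most 0.0782) than in any on MEF (at least 0.0906). That rested on 0 to 8 counts without feeders and 4 to 16 on MEF, which overlapped. MESP1 had at most 3 counts everywhere. Endoderm and hypoblast markers summed to 4.59 to 14.2 and 3.75 to 6.29 CPM, with 0 called and GATA4 at 3 counts or fewer in every library. The sum for trophoblast and amnion markers, nearly all of it KRT7, separated the conditions in the same direction as ID1, ID2 and ID3. The pluripotency sum separated them in the opposite direction, lower without feeders. The part of either in the ID values was not tested.

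**Figure D5:**
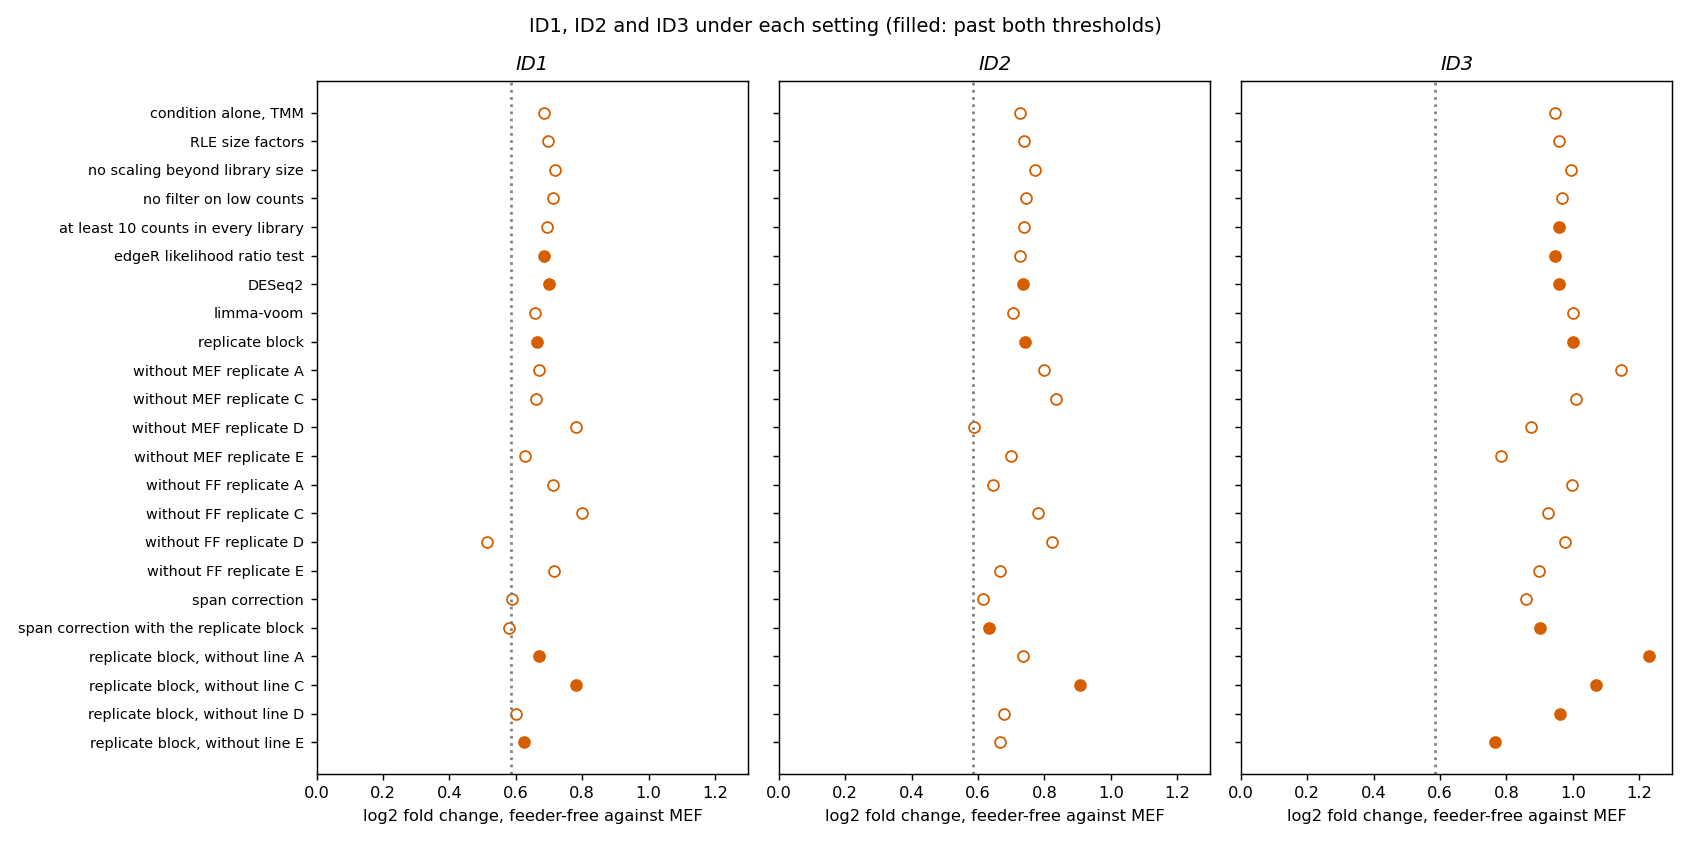
Log2 fold change of feeder-free against MEF (horizontal axes) for ID1, ID2 and ID3 under each setting (vertical axis), with filled points past both thresholds and a dotted line at a 1.5-fold change. All points lie above 0, and filled points occur in fits with the replicate block, DESeq2, edgeR's likelihood ratio test (ID1, ID3) and a stricter filter on counts (ID3).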

How the data were processed

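RNA sequencing counts per gene of 8 bESC libraries, 4 lines in 2 conditions, were analysed. The authors trimmed reads with Trimmomatic, aligned them to ARS-UCD2.0 with STAR, filtered optical duplicates (Picard) and poorly mapped alignments (samtools), and counted with featureCounts (Subread 1.6.2 per the submitters' processing notes); strand was not given in the sources used here. The values are raw counts, as deposited by the authors, without normalization. Of counts from 1 to 20, 71.9% were even, so a fragment may often have been counted once per read and counting error is then larger than the counts imply. RNA isolation is given as Trizol in the labels and as RNeasy in the methods.

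Left out were 3 of 32640 listed genes, which lack values, and 0 columns were unused. Total counts ranged from 44268717 to 102351560. No libraries of a condition were alike (smallest chi-square per degree of freedom 34.3 over 12 pairs). Conditions were compared in R 4.3.3 with edgeR 4.0.16 (filterByExpr, TMM, quasi-likelihood test) with Benjamini-Hochberg adjustment over 15744 genes, a prior count of 2 for log2 CPM, and standard errors from the F statistic. Lines pair the libraries because the same cell lines were used in both conditions: deviations from condition means correlated at 0.421 to 0.664 within lines and -0.523 to 0.249 between lines. Spans and coordinates came from the RefSeq annotation of ARS-UCD2.0.

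The members and gene lists were chosen with earlier results of these data known. Named were all members, the 3 E proteins, every other pathway gene called on condition alone or with the replicate block, the gene of highest mean CPM and of largest log2 fold change in each role, and the 5 genes most like the ID mean. Alternatives were the replicate block, each library left out, DESeq2 1.42.0, voom (limma 3.58.1), the likelihood ratio test of edgeR, RLE or no scaling, and no filter or a stricter one on low counts. The replicate block without each line and the correction for span (a fitted trend with log10 span per library, used as an offset) were added after seeing the data. Promoter and protein sequences were not used here.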

Additional observations from a re-analysis of the deposited data

Results flagged for a closer look

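Of 64 groups of 4 libraries examined (32 named genes in 2 conditions), 2 held a library far from the other 3, where chance gives about 3.2 (1 in 20). ACVR2B in the MEF library of line E was at 5.82 log2 CPM, above 5.60 to 5.62 in the other MEF libraries, a gap of 0.913 of the range. BAMBI in the MEF library of line C was at -1.08 log2 CPM, above -2.31 to -2.13 in the others, a gap of 0.853 of the range.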

How the results depend on the processing

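The count of members called, 0 on condition alone, stayed 0 with each library left out in turn. It also stayed 0 with RLE or no scaling, no filter on low counts, voom, and the correction for span on condition alone. The count was 1 with at least 10 counts in every library, 2 with edgeR's likelihood ratio test, 3 with DESeq2, and 3 with the replicate block. It was 2 with the correction for span and the block, and 2, 4, 1 and 2 with the block without line A, C, D or E. Over all 15744 genes tested, condition alone called 114 higher and 158 lower, and the block 869 and 713. With the correction for span the block called 833 higher and 642 lower, and condition alone 89 and 143. Counts over all genes in the other settings are not given here, so a higher count there need not be particular to these genes. The count of other pathway genes called, 2 on condition alone, was 4, 8, 11 and 10 under the same filter, likelihood ratio test, DESeq2 and replicate block, and 10 with the correction for span and the block. It stayed 2 with RLE or no scaling, no filter on low counts, voom, and the correction for span on condition alone. With the block it was 10, 6, 5 and 5 without line A, C, D or E, and without 1 library on condition alone it ranged from 0 (without D or E on MEF, or C or E without feeders) to 5 (without the feeder-free library of A). Of 16 alternative settings, not counting those added after seeing the data, ID1 was called in 3, ID2 in 2 and ID3 in 4, and each in 0 of the 8 that left out a library; the block changed no other member's call.

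The sign of 3 named genes turned. BMP7, -0.21 with all libraries, was -0.46 to 0.011 with a library left out, above 0 only without the feeder-free library of A. ID4 was 0.024 with no scaling, 0.0058 with no filter, -0.14 to 0.091 with a library left out, and 0.089 and 0.081 with the block without line C or D. TCF3 was -0.13 to 0.015 with a library left out and 0.00043 with the block without line C. The causes were not tested. Other scalings moved the median of all genes by at most 0.040. With 4 lines, intervals are wide, and ligands and targets under 1 CPM rest on few counts.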
